A study of Drosophila melanogaster with 60 samples.

Results

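Acetylation and trimethylation of lysine 27 of histone H3 (H3K27ac and H3K27me3) were set against each other at the starts of protein-coding genes in late mesoderm of Drosophila melanogaster embryos. A gene was placed in a class separately in replicates 1, 2 and 3 of the control libraries. It was acetylated where an H3K27ac peak touched the window of 1 kb to either side of its start, trimethylated where an H3K27me3 peak did, both, or neither. A gene became a member when its class was the same in all 3 replicates, which held for 3695 of 13968 genes (26.5%). Of these, 2719 were acetylated only, 93 were trimethylated only, 270 carried both marks and 613 carried neither. The peaks of these windows chose the members, so the coverage of the members in the 6 control libraries is a description and was not tested.

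The study profiled Ubx, Pho and both histone marks by chromatin immunoprecipitation and sequencing (ChIP-seq) in nuclei of mesoderm or neurons at an early and a late embryonic stage, with and without degradation of the Hox protein Ubx. It held 60 samples, of which 35 peak lists were used here. The H3K27ac control libraries were made with antibody ab4729 and the H3K27me3 control libraries with antibody ab6002, 3 of each, from embryos of stages 14 to 17. All 6 had the genotype twi-INTACT; UAS-Nslmb,GFP-Ubx. These embryos therefore carried a GFP-tagged Ubx and the transgene of a GFP-directed protein degrader, with no driver named for that transgene. INTACT captures nuclei tagged under a tissue-specific promoter, here that of twist (twi), so the nuclei came from the twi lineage as a whole, including body wall, visceral and heart muscle and fat body precursors. The libraries used for comparison were those of degradation embryos (twi-INTACT, Mef2>Nslmb,GFP-Ubx; stages 14 to 17; 3 per antibody), of Pho in the control genotype (3), and of early (stages 10 to 13) and late wild-type mesoderm (twi-INTACT; 2 per mark and stage).

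Acetylation and trimethylation of lysine 27 exclude each other on one histone H3 tail. CBP, encoded by nejire in flies, deposits H3K27ac at active promoters and enhancers. The Polycomb repressive complex 2 deposits H3K27me3 over broad domains of silenced developmental genes, and Pho helps to recruit Polycomb complexes to DNA. A nucleus can hold both marks on neighbouring nucleosomes or on its pair of chromosomes, and different nuclei of a tissue can hold different marks. In these pooled nuclei those cases, and a change in the number of cells or in the mark per cell, cannot be told apart.

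The lists of replicate 3 stood apart from the others. Peaks of H3K27ac control 1, 2 and 3 had median widths of 191, 585 and 155 bp and covered 9.47, 26.9 and 7.71 Mb, and those of H3K27me3 control 1, 2 and 3 had median widths of 220, 649 and 148 bp and covered 8.58, 21.4 and 13.1 Mb. The H3K27me3 control 3 list touched 6987 windows, against 1547 and 3404 in replicates 1 and 2, and 25.1% of the windows it touched held at most 50 covered bases. Peaks made mostly of repeat sequence were 11.7% of the H3K27ac and 14.0% of the H3K27me3 list of replicate 3, against 2.61% to 5.27% in the other 4 lists. The peaks of H3K27ac control 3 carried the name of replicate 2 inside the list. The label was followed, and at most 0.0154% of the peaks of any pair of the 6 lists had identical coordinates. Results are therefore given with all 3 replicates and, where it matters, with replicates 1 and 2 alone. Read depth is unknown, since the lists hold no counts.

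Promoters of 5 members are printed as examples of the marked classes and do not stand for their class. RpL26 led the acetylated class by peak rank, oc and run led the trimethylated class, and Ubx and GATAe carried both marks. Each line runs 5′ to 3′ from 200 bases before the start to the 20 bases from the start on, read from the RefSeq Release 6 reference, the dm6 build. Capitals mark the 5 motifs searched: GAGAG (the letters bound by GAGA factor), GCCAT (the core bound by Pho) and TATCGATA (the element bound by DREF), each on both strands, and TATAAA (the TATA box) and TCAGT (an initiator) on the gene's strand. GAGAG on the other strand reads CTCTC and GCCAT reads ATGGC.
RpL26 (chr3L:18898675-18898894, plus strand): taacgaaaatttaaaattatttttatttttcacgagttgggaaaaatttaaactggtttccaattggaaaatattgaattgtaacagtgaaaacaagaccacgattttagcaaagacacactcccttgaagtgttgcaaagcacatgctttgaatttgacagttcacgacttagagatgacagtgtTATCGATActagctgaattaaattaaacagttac
oc (chrX:8650662-8650881, minus strand): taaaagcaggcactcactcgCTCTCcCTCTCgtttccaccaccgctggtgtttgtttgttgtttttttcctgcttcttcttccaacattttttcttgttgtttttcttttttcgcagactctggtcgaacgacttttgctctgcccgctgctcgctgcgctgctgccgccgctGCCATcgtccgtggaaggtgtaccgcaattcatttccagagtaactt
run (chrX:20690470-20690689, plus strand): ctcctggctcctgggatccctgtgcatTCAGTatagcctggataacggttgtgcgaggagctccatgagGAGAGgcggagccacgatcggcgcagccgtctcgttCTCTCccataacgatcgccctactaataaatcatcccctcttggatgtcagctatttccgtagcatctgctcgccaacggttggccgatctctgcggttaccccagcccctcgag
Ubx (chr3R:16734407-16734626, minus strand): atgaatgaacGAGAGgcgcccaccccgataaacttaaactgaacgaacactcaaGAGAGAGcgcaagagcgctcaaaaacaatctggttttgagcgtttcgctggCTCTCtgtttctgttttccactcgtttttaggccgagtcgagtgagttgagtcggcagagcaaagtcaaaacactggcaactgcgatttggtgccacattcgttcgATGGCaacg
GATAe (chr3R:16008905-16009124, plus strand): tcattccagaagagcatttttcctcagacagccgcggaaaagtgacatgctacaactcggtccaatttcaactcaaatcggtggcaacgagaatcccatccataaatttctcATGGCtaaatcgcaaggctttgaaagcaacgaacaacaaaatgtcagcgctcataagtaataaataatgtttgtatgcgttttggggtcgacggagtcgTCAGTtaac
The RpL26 promoter held 1 TATCGATA close to the start, as did 14.8% of acetylated promoters anywhere in these bases, while RpL32, also among the leading acetylated genes, held none. The both-mark member Der-1 held no GAGAG and 1 TATAAA. Those of oc and run held 2 GAGAG matches each and that of Ubx held 4, counting overlapping matches, while GATAe held none. GCCAT occurred in oc, Ubx and GATAe and TCAGT in run and GATAe.

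Acetylation alone was the most frequent state in replicates 1 and 2, and both marks together in replicate 3. In replicates 1, 2 and 3, 8528, 8370 and 3887 genes were acetylated only, 685, 815 and 2781 were trimethylated only, 862, 2589 and 4206 carried both marks and 3893, 2194 and 3094 carried neither. With the same class required in all 3, acetylated genes made up 19.5% of all genes, trimethylated genes 0.666%, both-mark genes 1.93% and genes with neither mark 4.39%, and 10273 genes (73.5%) were in a mixed class. In replicates 1 and 2 alone, 6864 genes were acetylated only, 189 trimethylated only, 562 carried both marks and 1387 neither. Of the 6864 acetylated genes, replicate 3 kept 39.6% as acetylated and placed 32.0% under both marks and 11.2% under H3K27me3 alone. Of the 562 both-mark genes it kept 48.04%, placed 34.9% under H3K27me3 alone, 10.5% under H3K27ac alone and 6.58% under neither mark. Peaks of H3K27ac touched 5848 windows (41.9%) in all 3 replicates whatever the other mark, and those of H3K27me3 touched 1022 (7.32%).

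**Figure D1:**
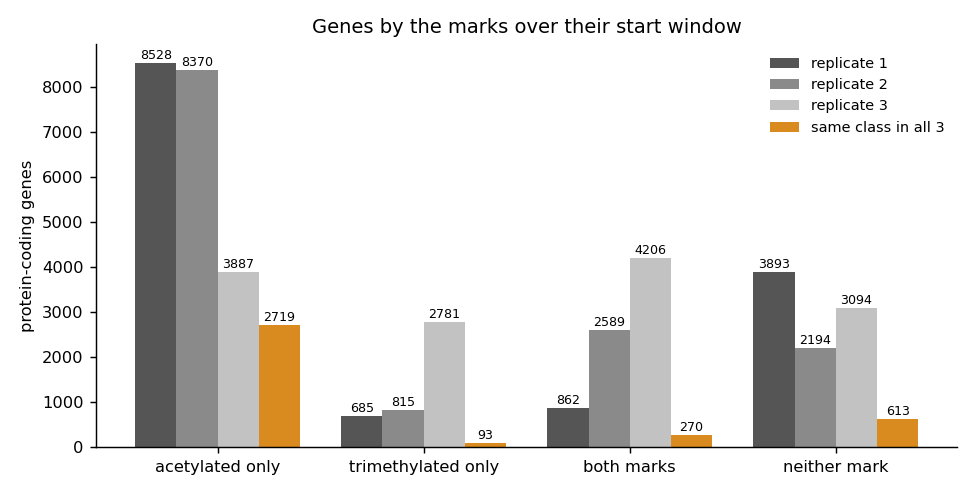
Number of protein-coding genes (vertical axis) acetylated only, trimethylated only, with both marks or with neither mark over the start window, in each control replicate (grey bars) and in all 3 (orange bars). Acetylated genes led in replicates 1 and 2 with 8528 and 8370, and replicate 3 held more trimethylated and both-mark genes than the other replicates.

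H3K27ac lay over more gene starts than H3K27me3 in every replicate. It touched 67.2%, 78.5% and 57.9% of windows in replicates 1, 2 and 3, against 11.1%, 24.4% and 50.02% for H3K27me3. The means were 67.9 ± 10.3% for H3K27ac and 28.5 ± 19.8% for H3K27me3 (SD, n = 3 each), a difference of 39.4 points. The lowest H3K27ac share lay above the highest H3K27me3 share, and the two-sided exact permutation test gave p = 0.1, the smallest that 3 libraries against 3 can give. The mean covered part of a window was 22.7 ± 16.4% for H3K27ac and 6.11 ± 3.05% for H3K27me3 (exact permutation p = 0.2, n = 3 each).

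The 2 marks met in a window about as often as their shares alone would give. In replicates 1, 2 and 3 the number of both-mark genes was 0.829, 0.969 and 1.04 times the number that independent marks at the same shares would give (mean 0.946 ± 0.107, SD, n = 3). Across all bases of the genome the shared length was 1.02, 1.96 and 2.98 times that of independent marks. In replicate 1, 55.7% of windows with H3K27me3 also held H3K27ac, and 9.18% of windows with H3K27ac also held H3K27me3.

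Gene by gene, the covered share was compared between the marks with limma on the arcsine square root of the share. Of 13355 genes tested with the lists as deposited, 0 (0%) were higher for H3K27ac and 0 (0%) were higher for H3K27me3 at an adjusted p under 0.05. At an unadjusted p under 0.05 there were 4866 and 311, and the lowest adjusted p was 0.0755. On simulated data from these libraries the same fit recovered 0% of genes raised by 40 or 60 points and 64% of those raised by 80 points. With each list trimmed to its best-scored peaks covering 7.71 Mb, limma called 2896 of 11815 genes (24.5%) higher for H3K27ac and 274 (2.32%) higher for H3K27me3. Calls in the trimmed lists depend on that scaling. Without replicate 3, the lists as deposited gave 3947 and 129 calls.

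The acetylated class was led by genes of translation. By the rank of the authors' score, its leading genes included RpL26, RpL32, RpL13A and RpS4, which encode ribosomal proteins, eEF1gamma, a translation elongation factor subunit, Dph4, named for diphthamide synthesis, and Spec2, named for a small Cdc42 effector. The RpL26 window was covered to 61.4%, 58.5% and 34.3% by H3K27ac in replicates 1, 2 and 3, and not at all by H3K27me3. For eEF1gamma, H3K27ac covered 32.3%, 63.4% and 33.3%, and H3K27me3 covered none. RpL13A, Dph4 and Spec2 share one stretch of chromosome arm 3R with starts within their common windows, so their values are not independent. The same holds widely: 61.8% of acetylated members had a window that overlapped that of another acetylated member, and the 2719 genes had 2644 different starts. The longest run of neighbouring acetylated genes, 24, was largely made of 23 records of pre-mod(mdg4), alternative parts of one trans-spliced locus, which count as separate genes in the annotation.

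Ribosomal protein genes were acetylated more frequently than the 19.5% of all genes, and proteasome genes slightly more. Of 92 cytoplasmic ribosomal protein genes, 47 were acetylated in all 3 replicates, 1 (RpS30) carried both marks and none was trimethylated only. H3K27ac covered 42.9 ± 22.7% of their windows and H3K27me3 covered 1.79 ± 1.22% (mean over genes, then SD over 3 replicates). RpLP0, a ribosomal stalk protein gene, was covered to 100%, 86.1% and 26.5% by H3K27ac, with no H3K27me3. Of 73 mitochondrial ribosomal protein genes, 32 were acetylated in all 3 and none was in another class in all 3. Of 48 proteasome genes, 12 were acetylated and 1, Rpn12R, carried both marks. In the trimmed lists, 63 of 90 tested cytoplasmic and 42 of 72 tested mitochondrial ribosomal protein genes were called higher for H3K27ac. Of 44 tested proteasome genes 15 were, against 24.5% of all genes tested. Calls higher for H3K27me3 were 0, 0 and 1 in these groups, against 2.32% of all genes tested.

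Genes that encode the opposed chromatin systems differed in how often they were acetylated, with 53.3% of Trithorax and 21.1% of Polycomb group genes in the class in all 3 replicates, against 19.5% of all genes. Of 15 Trithorax group genes, whose products keep developmental genes active, 8 were acetylated in all 3 replicates: ash1, ash2, trx, osa, mor, Snr1, Trl and nej, the gene of the acetyltransferase CBP. The window of mor, a Brahma complex subunit, was covered to 70.02%, 100% and 36.7% by H3K27ac and not by H3K27me3. Of 19 Polycomb group genes, 4 were acetylated, Pc, Su(z)12, crol and phol, and 1, jing, carried both marks. Su(z)12, a core subunit of the H3K27 methyltransferase complex, was covered to 73.7%, 73.4% and 12.4% by H3K27ac and not by H3K27me3. In replicates 1 and 2 alone, 14 Trithorax (93.3%) and 14 Polycomb group genes (73.7%) were acetylated only, against 49.1% of all genes. In the trimmed lists, 7 of 14 tested Trithorax and 5 of 19 tested Polycomb group genes were called higher for H3K27ac, against 24.5% of all genes tested, and none of either group for H3K27me3. The Polycomb group share lay near that of all genes with all 3 replicates and in the trimmed lists. In replicates 1 and 2 alone it lay above that of all genes.

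The 93 trimethylated genes were led by developmental regulators and signals. Their 8 leading genes were oc (orthodenticle, a head homeobox gene), run (a Runx pair-rule gene), bi (optomotor-blind, a T-box gene), upd1 (a JAK/STAT ligand), zen2 (a homeobox gene of the Antennapedia complex), hui, lms (a muscle homeobox gene) and Sfp24Ba, a seminal fluid protein gene. The oc window held no H3K27ac, and H3K27me3 covered 72.2%, 62.9% and 14.2%. The run window held no H3K27ac, and H3K27me3 covered 63.8%, 100% and 47.8%. For upd1, H3K27me3 covered 83.4%, 100% and 65.8%, with no H3K27ac. Members of the groups examined were few, and 0.666% of all genes were trimethylated only. They were kn among 26 muscle identity factors, bi and sv among 18 T-box and Pax genes, and peb among 15 gut factors. Others were run among 25 ectoderm and segmentation genes and Gr59a, Or56a and Or67c among 119 odorant and gustatory receptor genes. Ir94e among 60 ionotropic receptor genes and Lcp65Ac among 115 cuticle protein genes were also members. Genes of adult function were present too, such as the odorant receptor gene Or67c (71.0%, 14.1% and 6.997% under H3K27me3) and the photoreceptor myosin gene ninaC (59.4%, 100% and 6.15%).

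Starts of trimethylated members lay far from other starts, as did those of both-mark members and members with neither mark. Their median distance to the next gene start was 3849 bp, against 3107.5 bp for both-mark members, 2989 bp for members with neither mark, 469 bp for acetylated members and 1499 bp for all genes. A neighbouring gene of the same class was present for 28.0% of trimethylated members, as in the run of Sfp24Ba, Sfp24Bd and Sfp24Bb. A divergent start on the other strand lay within 1 kb for 5.38% of them, 14.1% of both-mark members, 8.48% of members with neither mark, 56.5% of acetylated members and 32.1% of all genes. The part of this spacing in the class differences was not tested.

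Genes with both marks were of several kinds. By peak rank the leading 8 were ORY on the Y chromosome, Der-1, bs (the serum response factor homolog), w (white, an eye pigment transporter and a common marker of fly transgenes), PRAS40, IFT52, COX5B and zfh1. The Der-1 window was covered to 38.7%, 44.8% and 24.5% by H3K27ac and to 39.98%, 33.1% and 9.60% by H3K27me3. For w the shares were 37.6%, 29.6% and 28.5% for H3K27ac and 39.3%, 53.7% and 40.1% for H3K27me3. For zfh1, a zinc finger homeobox gene of mesoderm, H3K27ac covered 35.9%, 49.2% and 3.05% and H3K27me3 covered 100%, 100% and 58.2%. The 3 replicates of each mark overlap for Der-1, and for w and zfh1 every H3K27me3 value lies above every H3K27ac value.

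Within the 270 windows the 2 marks often did not share bases. The share of marked bases under both marks had a median of 5.06%, 48.8% and 5.26% in replicates 1, 2 and 3 (mean of the medians 19.7 ± 25.2%, SD, n = 3), so replicate 2 with its wide peaks differed from the others. No base was shared in 109, 24 and 117 of the 270 windows. The lower values belong to lists of short peaks. H3K27me3 covered more of the window than H3K27ac in all 3 replicates at 124 members (45.9%), H3K27ac covered more in all 3 at 33 (12.2%), and the order differed between replicates at 113 (41.9%). The class is sensitive to the overlap required: with at least 200 covered bases for each mark 43 genes kept both marks in all 3 replicates, and with a window of 2 kb to either side 859 did.

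Of 270 both-mark members, 108 had a neighbouring gene of the same class. The Enhancer of split complex, a set of Notch-responsive repressor and Bearded-family genes on chromosome arm 3R, held 8 of its 11 genes in the class. They lay in runs of 4 and 4, and the class held 1.93% of all genes. At E(spl)mgamma-HLH, H3K27ac covered 16.3%, 96.1% and 12.9% and H3K27me3 covered 79.8%, 97.5% and 68.3%. At E(spl)mbeta-HLH, H3K27ac covered 44.1%, 100% and 6.70% and H3K27me3 covered 37.5%, 100% and 12.5%. The other 3 genes, E(spl)m2-BFM, E(spl)m3-HLH and E(spl)m4-BFM, lacked an H3K27ac peak in replicate 3 only. These windows were singled out as runs of neighbours after their values were seen. A run of 5 around svp, a nuclear receptor gene, was the longest of the class.

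Members with neither mark included sensory receptor genes and a few muscle and chromatin genes. Of 119 odorant and gustatory receptor genes, 12 carried neither mark (10.1%, against 4.39% of all genes), 7 were acetylated, 3 trimethylated (Gr59a, Or56a and Or67c) and 1, Or85a, carried both. Of 60 ionotropic receptor genes, 4 carried neither mark (6.67%) and 1 was in each of the other classes. Of 115 cuticle protein genes, 7 carried neither (6.09%), 1 was acetylated, 1 trimethylated and 2 carried both. The muscle genes Mf (myofilin) and up (a troponin T gene) and the histone demethylase gene Utx also had no peak of either mark. They were 6.90% of 29 muscle structure and contraction genes and 6.67% of 15 Trithorax group genes, near the 4.39% of all genes. Of 9 fat body genes, Fbp2 and Lsp1alpha carried neither mark (22.2%).

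Hox genes, which set segment identity along the body axis, were covered by H3K27me3 more than by H3K27ac in all 3 replicates at 8 of 8 loci, against 687 of all 13968 genes. The group averaged 10.4 ± 12.5% under H3K27ac and 74.6 ± 16.01% under H3K27me3 (SD, n = 3). Every H3K27me3 value lay above every H3K27ac value at all 8, which held for 2.73% of all genes. Ubx was covered to 1.35%, 36.6% and 4.25% by H3K27ac and to 82.9%, 100% and 42.5% by H3K27me3. Abd-B held 0%, 0% and 5.70% under H3K27ac and 95.5%, 62.2% and 49.6% under H3K27me3. For lab, the most anterior Hox gene, H3K27ac covered 6.75%, 43.7% and 0% and H3K27me3 covered 100% each time. Only Ubx met the both-mark rule in all 3; the other 7 were mixed because H3K27ac was missing from at least 1 replicate and present in another. In the trimmed lists, limma called 7 of the 8 higher for H3K27me3, against 2.32% of all genes tested. The gene not called was Ubx (difference -61.1 points, limma adjusted p = 0.0992). The smallest adjusted p among Hox genes with the lists as deposited was 0.0755.

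**Figure D2:**
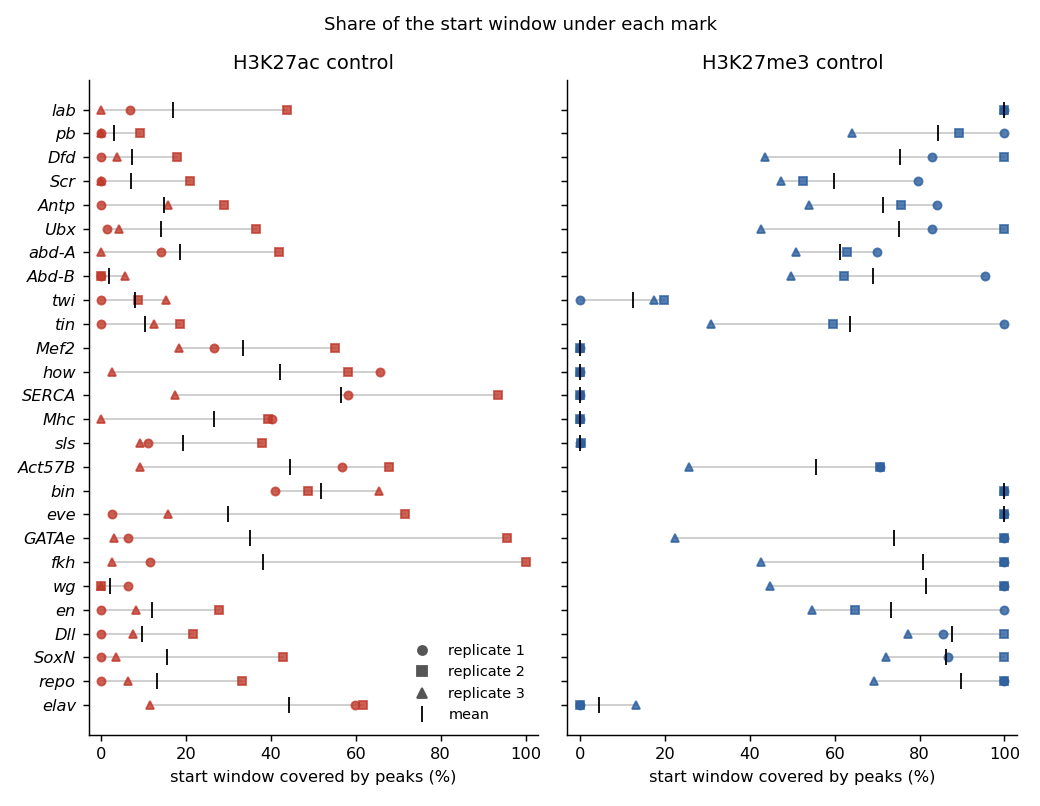
Share of the start window covered by peaks (horizontal axes, percent) of H3K27ac (left) and H3K27me3 (right) in the 3 control replicates for named regulators and muscle genes; vertical ticks are means and grey lines the range. Hox genes lie low for H3K27ac and at 42.5% or above for H3K27me3, while Mef2, how, SERCA and Mhc hold no H3K27me3.

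Regulators of other lineages and of muscle subtypes carried the same balance. The 26 muscle identity factors, which give single muscles their shape and position, averaged 14.4 ± 16.8% under H3K27ac and 66.1 ± 19.5% under H3K27me3, and 23 had more H3K27me3 than H3K27ac in all 3 replicates, against 687 of all 13968 genes. Of them, 4 genes (Doc1, Dr, eve and tup) carried both marks (15.4%, against 1.93% of all genes). At eve, H3K27ac covered 2.50%, 71.5% and 15.8% and H3K27me3 covered 100% each time. The 25 ectoderm and segmentation genes averaged 16.02 ± 16.3% under H3K27ac and 68.8 ± 18.6% under H3K27me3. At wg, the founding Wnt ligand, H3K27ac covered 6.25%, 0% and 0% and H3K27me3 covered 100%, 100% and 44.6%. The 18 T-box and Pax genes averaged 10.5 ± 12.1% and 65.0 ± 19.3%, in the order H3K27ac and H3K27me3. In the trimmed lists, 2.32% of all genes tested were called higher for H3K27me3. The calls took in 20 of 26 muscle identity factors, 18 of 25 ectoderm and segmentation genes and 15 of 18 T-box and Pax genes. Of those groups, 0, 2 and 0 were called higher for H3K27ac, against 24.5% of all genes tested.

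Gut factors had one of the highest shares of both-mark genes among the groups. Of 15, 5 carried both in all 3 replicates (GATAe, dve, eya, fkh and grn), against 1.93% of all genes, and 1 (peb) was trimethylated only. The group averaged 17.5 ± 19.8% under H3K27ac and 66.2 ± 19.2% under H3K27me3. At GATAe, a GATA factor of the endoderm, H3K27ac covered 6.30%, 95.7% and 3.10%, so its acetylation rested mainly on replicate 2. H3K27me3 covered 100%, 100% and 22.2% of that window. At fkh, H3K27ac covered 11.5%, 100% and 2.65% and H3K27me3 covered 100%, 100% and 42.6%. The 24 proneural and neuronal identity factors averaged 16.3 ± 15.999% under H3K27ac and 49.3 ± 17.5% under H3K27me3, with 6 in the both-mark class (Lim3, ato, ind, unpg, vnd and zfh2).

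Early mesoderm regulators carried both marks more frequently than all genes, and acetylation alone about as frequently. Of 12, Mef2 and how were acetylated only (16.7%, against 19.5% of all genes). The genes bin, sna, srp and zfh1 carried both marks (33.3%, against 1.93% of all genes). Mef2, the muscle differentiation factor, was covered to 26.7%, 55.1% and 18.4% by H3K27ac and not at all by H3K27me3. At tin, the heart and visceral muscle factor, H3K27ac covered 0%, 18.6% and 12.3% and H3K27me3 covered 100%, 59.6% and 30.9%. At bin, a FoxF factor of visceral mesoderm, H3K27ac covered 41.0%, 48.8% and 65.4% and H3K27me3 covered 100% each time, so H3K27ac was there high in all 3 under a complete H3K27me3 cover. The window of twi, the gene that also gives the INTACT line its name, held 0%, 8.60% and 15.2% under H3K27ac and 0%, 19.8% and 17.5% under H3K27me3, which overlap.

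Muscle structure genes lay near the average of all genes for both marks, and myoblast fusion genes higher for H3K27ac. The 29 structure and contraction genes averaged 24.1 ± 16.2% under H3K27ac and 3.67 ± 1.46% under H3K27me3, against 22.7% and 6.11% over all genes. Of them 17.2% were acetylated only in all 3, against 19.5% of all genes. Act87E, Msp300, SERCA, TpnC73F and if were acetylated in all 3. SERCA, the calcium pump of the sarcoplasmic reticulum, was covered to 58.1%, 93.6% and 17.5% by H3K27ac and not by H3K27me3. Mhc, the muscle myosin heavy chain, held 40.2%, 39.3% and 0% under H3K27ac and none under H3K27me3, so replicate 3 alone put it in a mixed class. The sls window (the giant protein Sallimus) was mixed because H3K27me3 covered 0.15% of it in replicate 2. Act57B, a muscle actin, differed from its group, with 56.8%, 67.9% and 9.04% under H3K27ac and 70.8%, 70.7% and 25.5% under H3K27me3. The 14 myoblast fusion genes averaged 36.8 ± 25.7% under H3K27ac and 4.32 ± 4.80% under H3K27me3, and Arf6, Ced-12, SCAR, Vrp1 and blow (35.7%) were acetylated in all 3. In the trimmed lists, 6 of 26 tested structure and 8 of 12 tested fusion genes were called higher for H3K27ac, against 24.5% of all genes tested, and none for H3K27me3.

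**Figure D3:**
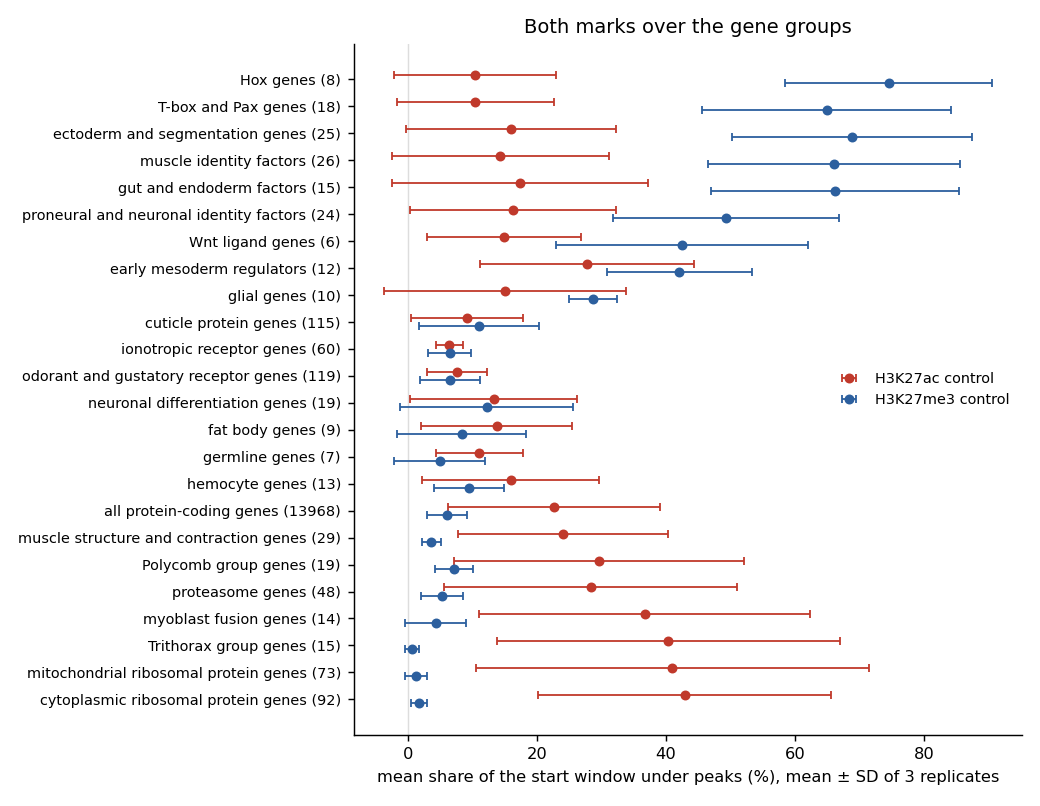
Mean share of the start window under H3K27ac (red) and H3K27me3 (blue) peaks for each gene group (number of genes in brackets), as mean ± SD of 3 control replicates. The Hox genes sit at 10.4% and 74.6% and the cytoplasmic ribosomal protein genes at 42.9% and 1.79%, in the order H3K27ac and H3K27me3.

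Markers of the labelled tissue and of others it could hold gave a mixed picture. The 10 mesoderm and muscle markers averaged 24.8% under H3K27ac and 13.6% under H3K27me3, with 2 acetylated only and 1 with both marks. The 7 neuron markers averaged 13.6% under H3K27ac and 14.9% under H3K27me3, and 3 of them held an H3K27ac peak in all 3 replicates. The elav window, a pan-neuronal marker, held 59.7%, 61.7% and 11.5% under H3K27ac and 0%, 0% and 13.1% under H3K27me3. That was more H3K27ac than the mean of the mesoderm markers, but elav was the highest of the 7 neuron markers. Gene means of H3K27ac ran from 0% to 44.3% over the neuron markers and from 3.53% to 48.7% over the mesoderm and muscle markers. The 4 glia markers averaged 23.7% under H3K27ac and 47.5% under H3K27me3, with gene means of H3K27me3 from 0% to 93.0%. Their H3K27ac mean rested mainly on replicate 2, with 7.81%, 61.2% and 2.21% in replicates 1, 2 and 3. The mesoderm and muscle markers held 29.7%, 37.0% and 7.63% in the same replicates. Among the glia markers, the glial determinant repo held 0%, 33.2% and 6.35% under H3K27ac and 100%, 100% and 69.4% under H3K27me3. The 4 hemocyte markers averaged 7.28% under H3K27ac and 0.891% under H3K27me3, the 2 gut markers 36.5% and 77.5%, the 2 fat body markers 19.1% and 15.1%, the 25 epidermis markers 13.9% and 7.96% and the 2 germline markers 13.8% and 1.17%, in the same order. The H3K27ac mean of the gut markers also rested mainly on replicate 2, with 8.92%, 97.8% and 2.87% in replicates 1, 2 and 3. The part of nuclei of other cell types in these values was not tested.

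Around the start, the marks had different shapes. In acetylated members the H3K27ac cover was highest at 250, 350 and 250 bp after the start in replicates 1, 2 and 3, where it took up 73.2%, 84.1% and 28.3% of a 100-bp bin on average. It was 24.6%, 52.4% and 5.38% in the 200 bases before the start and 14.9%, 36.8% and 6.91% from 2 to 5 kb after it. In both-mark members the H3K27ac maximum lay at the same distances, with 33.3%, 65.4% and 19.0% of the bin. Over all genes it also lay at these distances, with 38.3%, 55.7% and 13.6%, so the position was not particular to the classes. H3K27me3 was spread further in both-mark members. It covered 35.9%, 60.3% and 22.1% in the 200 bases after the start and still 29.3%, 50.2% and 18.6% from 2 to 5 kb after it. In trimethylated members it covered 40.1%, 53.3% and 18.7% in the 200 bases after the start and 36.2%, 53.6% and 16.8% from 2 to 5 kb after it. The widest H3K27me3 peak touching a both-mark window had a median width of 604.5, 2956.5 and 332.5 bp, against 562, 1468 and 196 bp in trimethylated windows.

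**Figure D4:**
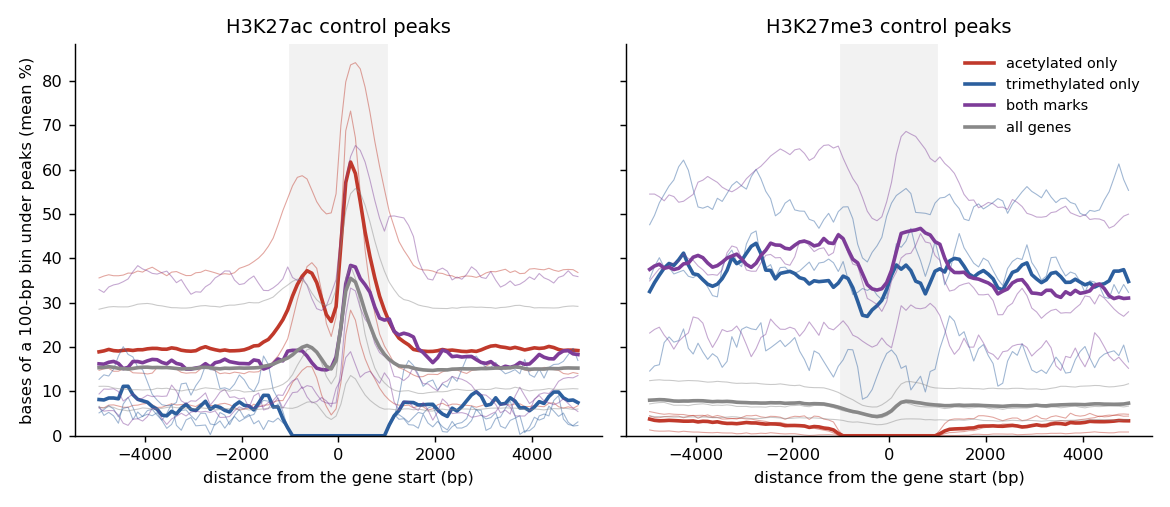
Mean share of each 100-bp bin under H3K27ac (left) and H3K27me3 (right) peaks from 5 kb before to 5 kb after the gene start; thick lines are means of 3 control replicates, thin lines single replicates, and the grey band is the window that defined the classes. H3K27ac rises to a maximum after the start in acetylated and both-mark genes and over all genes, while H3K27me3 covers the whole span in trimethylated and both-mark genes.

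Promoter sequence and chromosome, which the rule did not use, differed between the classes. TATCGATA occurred in 403 of 2719 acetylated promoters (14.8%), 0 of 93 trimethylated (0%), 13 of 270 both-mark (4.81%) and 9 of 613 promoters with neither mark (1.47%), and in 8.28% of all promoters of the same length. GAGAG occurred in 19.4%, 31.2%, 33.3% and 22.8% of the 4 classes in that order and in 23.7% of all promoters. TCAGT occurred in 23.2%, 38.7%, 43.0% and 41.1%, against 30.6% of all. GCCAT occurred in 31.3%, 40.9%, 28.9% and 33.9%, against 32.7%, and TATAAA in 24.1%, 29.0%, 27.04% and 30.3%, against 26.7%. The median GC content of these promoters was 35.9%, 39.5%, 43.4% and 36.4%, against 37.7% of all, so base composition moved with the classes, and its part in the motif shares was not tested. The median gene length was 2529, 1918, 2015 and 1713 bp in the 4 classes, against 2164.5 bp for all genes.

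The X chromosome was nearly absent from the both-mark class. It held 7 of 270 both-mark members (2.59%), against 183 of 613 with neither mark (29.9%), 22 of 93 trimethylated (23.7%), 402 of 2719 acetylated (14.8%) and 15.7% of all genes. With the classes from replicates 1 and 2 alone the X share of both-mark genes was 3.02% of 562. Peaks of either mark were scarcer at X-linked starts in each control list. H3K27ac touched 53.4%, 76.0% and 40.4% of X-linked windows, against 69.8%, 79.3% and 61.5% of windows on chromosomes 2 and 3. H3K27me3 touched 4.78%, 19.6% and 38.6% of X-linked windows, against 12.3%, 25.4% and 52.3%.

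The libraries of degradation embryos, which took no part in the rule, placed most acetylated and both-mark members in the same class again. In the 3 H3K27ac libraries of degradation embryos, a peak touched 92.8% to 97.5% of acetylated, 19.4% to 47.3% of trimethylated and 81.1% to 84.4% of both-mark members, against 68.4% to 75.5% of all genes. In their 3 H3K27me3 libraries it touched 0.736% to 4.78%, 78.5% to 87.1% and 82.6% to 92.2% of the same classes, against 11.4% to 22.2% of all genes. Set beside each other by replicate number, these libraries placed 68.1%, 78.9% and 72.6% of both-mark members under both marks again, against 7.41%, 12.1% and 16.2% of all genes. They placed 96.8%, 95.4% and 88.4% of acetylated members under H3K27ac alone, against 68.1%, 56.2% and 57.6% of all genes. Under H3K27me3 alone they placed 47.3%, 67.7% and 41.9% of trimethylated members, against 4.04%, 7.74% and 6.03% of all genes. These embryos share the stage, twi-INTACT, GFP-Ubx and the degrader transgene with the controls. They differ in the Mef2 driver of the degrader and in Ubx, so they are separate libraries of another genotype. In the H3K27me3 lists of degradation embryos the Ubx window was covered to 100% in all 3. Peaks of these lists had median widths of 503, 611 and 534 bp, against 220, 649 and 148 bp in the control lists. The part of peak width in this cover was not tested.

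**Figure D5:**
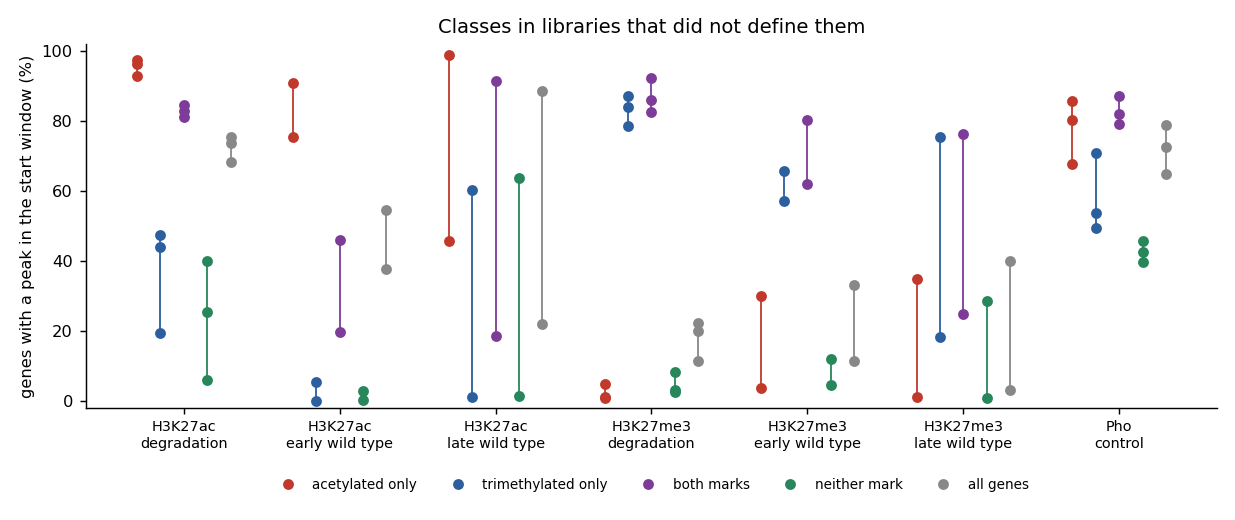
Share of genes with a peak in the start window (vertical axis, percent) in each library that did not define the classes (points; lines join the libraries of a group), by class and for all genes. H3K27me3 of degradation embryos touched 82.6% to 92.2% of both-mark genes, against 11.4% to 22.2% of all genes.

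In the early wild-type libraries, and in late wild-type replicate 3 but not 2, the H3K27ac share of both-mark members lay below that of all genes. Their H3K27me3 share lay above that of all genes in each early and late wild-type library. In the 2 early wild-type H3K27ac libraries a peak touched 45.9% and 19.6% of both-mark members, against 54.5% and 37.8% of all genes, while it touched 90.8% and 75.4% of acetylated members. In the 2 early H3K27me3 libraries a peak touched 80.4% and 61.9% of both-mark members, against 33.0% and 11.4% of all genes. Early libraries classed 41.9% and 48.9% of both-mark members as trimethylated only and 38.5% and 13.0% as both. The early embryos differ from the controls in stage, in genotype and in list size, which cannot be told apart here. The 2 late wild-type libraries of each mark (replicates 2 and 3) differed widely. H3K27ac touched 88.4% and 21.9% of all genes and H3K27me3 39.9% and 3.22%. Of both-mark members, H3K27ac touched 91.5% and 18.5% and H3K27me3 76.3% and 24.8%. These libraries placed 69.3% and 4.07% of both-mark members under both marks, against 35.7% and 0.580% of all genes. Under H3K27ac alone they placed 64.4% and 45.02% of acetylated members, against 52.8% and 21.3% of all genes.

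Pho peaks were found at all classes. In the 3 Pho control libraries, a peak touched 67.8% to 85.7% of acetylated members, 49.5% to 71.0% of trimethylated members, 79.3% to 87.0% of both-mark members and 39.6% to 45.7% of members with neither mark, against 65.0% to 78.7% of all genes. In each library the share of both-mark members lay above that of trimethylated members. The X chromosome held 2.59% of both-mark and 23.7% of trimethylated members. Pho touched 47.5%, 37.8% and 52.6% of X-linked windows, against 77.9%, 70.4% and 84.1% on chromosomes 2 and 3. The part of the X in this class difference was not tested. The mean covered part was 15.6%, 13.2% and 21.1% in both-mark windows, against 6.17%, 7.19% and 11.03% in trimethylated windows and 13.5%, 10.2% and 17.6% in all windows. With the classes from replicates 1 and 2 alone, Pho touched 82.7%, 76.0% and 87.5% of both-mark genes.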

How the data were processed

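The 3 H3K27ac and 3 H3K27me3 control peak lists were the main data, with the other mark, Pho and wild-type lists for comparison and 1 list per immunoprecipitate. Groups and replicate numbers came from the labels' titles and genotypes. Per the labels' protocols, the nuclei were INTACT-purified and samples went through ThruPLEX amplification. FastQC, Bowtie and MACS2 were used on the dm6 build, per the submitters' processing notes; versions, parameters and the use of inputs are not given in the sources used here. The deposited broad-peak columns were a score, a fold (ratio) over background, and 2 columns of −log10 p and q values, all the authors' values for a peak. The score ranked and filtered peaks within a list only. The combined Ubx lists and the inputs were not used here.

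Ensembl's annotation of the same assembly gave the starts of 13968 protein-coding genes on 7 chromosome arms. A window held 2001 bases, and 1 covered base counted as a peak. In the 6 lists, 26 peaks lay off those arms and were left out. No counts were available, so depth and its precision are unknown. The covered share of the window was transformed by the arcsine of its square root and tested with limma 3.58.1 (R 4.3.3, with trend), over all genes covered in at least 1 library, with Benjamini-Hochberg adjustment at 0.05. The fit was tested on simulated data with 200 genes changed. Shares of windows were compared by a two-sided exact permutation test. Other work used Python 3.11.15. Samples of a mark are separate samples by their labels, and nothing says whether they came from separate embryo collections, so p-values measure the spread between these samples. The deviations of same-numbered libraries correlated above 0.1 in 1 of 3 pairs only, and no block entered the main fit. That correlation leaves out shifts common to a whole library, so it cannot exclude pairs. The labels give the control inputs by replicate number and not by mark, and the class rule joins the marks by number. Results with a replicate block are given below.

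Named genes were 22 regulators and markers, the 8 genes of each marked class with the highest mean peak rank, and examples from 23 gene groups, of which 762 names matched and 8 did not. A few genes that this rule selects are not reported here. Members, gene groups and tests were chosen with earlier results of these data known. Alternatives changed the window, the overlap, the peaks kept, the starts used, the model and the replicates.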

Additional observations from a re-analysis of the deposited data

How the results depend on the processing

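Class counts and gene calls both moved with the settings. For acetylated only, trimethylated only, both marks and neither mark, in that order, the counts were 2747, 109, 84 and 1522 with 500 bases either side, 1867, 43, 859 and 129 with 2 kb, 2504, 167, 58 and 2166 with the better-scored 50% of the peaks, 3474, 132, 42 and 2153 with lists trimmed to equal covered length, 2724, 91, 262 and 652 without repeat peaks, 2591, 82, 415 and 517 with any annotated transcript start, and 2512, 104, 43 and 1847 with at least 200 covered bases. A class in at least 2 of 3 replicates, chosen after seeing the data, gave 7459, 621, 1434 and 2360. Leaving out a replicate gave 3010 to 6864, 189 to 332, 358 to 1054 and 956 to 1387, with the highest acetylated count without replicate 3 and the highest both-mark count without replicate 1. The causes were not tested, except that more bases required or fewer peaks kept lower both-mark counts by construction.

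Observed over expected both-mark genes moved to 0.812 with the better-scored peaks and 0.730 with trimmed lists, and ran from 0.899 to 1.004 with a replicate left out. The median share of marked bases under both marks ran from 2.58% to 23.6% with a replicate left out, the lowest without replicate 2, and from 11.7% to 36.7% under the other settings. The difference in windows touched was 31.0 to 55.1 points with a replicate left out and kept its direction under all alternatives run. With the replicate block its exact permutation p was 0.25, the smallest the paired test gives.

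For single genes, calls higher for H3K27ac and H3K27me3 were 2896 and 274 with trimmed lists, 0 to 3947 and 0 to 129 with a replicate left out, and 0 and 14 with the replicate block. The same-numbered libraries' deviations correlated at 0.238, -0.009 and -0.038, which cannot exclude pairs, and peak width moved with the number in both marks. The main fit held no block. The other alternatives of the model and windows gave 0 and 0. Over the 22 fixed genes, 282 comparisons with alternatives kept direction and side of the threshold, 20 passed it, and 6 reversed: twi at 4.66 (500 bases), 3.92 (2 kb), 3.10 (better-scored peaks) and 5.06 points (trimmed), and pros at 3.22 points with better-scored and with trimmed lists. Short peaks and unknown depth limit what the lists can show, since a missing peak is no measure of absence of a mark.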

Other observations

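Each of the 26 H3K27ac, H3K27me3 and Pho lists of the series touched a smaller share of X-linked gene starts than of starts on chromosomes 2 and 3. For Pho the control shares were 47.5%, 37.8% and 52.6% on the X, against 77.9%, 70.4% and 84.1% on chromosomes 2 and 3. The mean covered part was not lower on the X in every list: H3K27ac control 2 covered 40.4% of windows on either, and H3K27ac degradation 2 covered 30.7% on the X, against 29.5% on chromosomes 2 and 3. Both marks in all 3 control replicates were found at 0.319% of X-linked genes, against 2.23% of genes on chromosomes 2 and 3.

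The both-mark member ORY, on the Y chromosome, gave nearly equal shares for the marks, with 13.6%, 21.3% and 14.9% under H3K27ac and 14.7%, 20.5% and 15.3% under H3K27me3. In the Pho control lists its window was covered to 14.6%, 14.9% and 13.7%. Rpn12R differed from the other proteasome genes, with 1.499%, 78.6% and 8.60% under H3K27ac and 85.2%, 93.7% and 68.5% under H3K27me3.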
